A study of Homo sapiens with 6 samples.

Results

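AP1AR, which encodes the adaptor related protein complex 1 associated regulatory protein (also called gadkin or gamma-BAR), was followed in T98G cells together with the genes for the AP-1 adaptor subunits and KIF5B, 10 genes in all out of the 57133 symbols of the count table. The genes were chosen by symbol with the counts and log2 fold changes of this contrast already known, so their values in it are given as a description, with no test. They comprise AP1AR, 8 genes for AP-1 subunits (AP1B1, AP1G1, AP1G2, AP1M1, AP1M2, AP1S1, AP1S2 and AP1S3) and KIF5B, and all 10 were among the 14461 genes that passed the filter on low counts.

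Poly(A) RNA was sequenced from T98G, an established human glioblastoma line, after CRISPR-Cas9 knockout of CBX8, a chromobox subunit of Polycomb repressive complex 1. The 3 CBX8 KO libraries came from knockout cells carrying the empty doxycycline-inducible vector, and the 3 WT CBX8 re-expression libraries came from the same knockout line carrying that vector with epitope-tagged WT CBX8. All 6 received doxycycline at 1 µg/ml for 72 h, the genotype label of the re-expression libraries reads wild type, and whether the knockout line was 1 clone is not given in the sources used here. The 2 vectors were introduced and selected separately, so differences between the transduced populations and effects of CBX8 itself cannot be told apart.

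AP-1 is a heterotetramer of gamma, beta, mu and sigma chains that recruits clathrin and sorts transmembrane cargo between the trans-Golgi network and endosomes. AP1AR is a peripheral membrane protein that binds AP-1 through its gamma ear, the kinesin-1 heavy chain KIF5B and the actin nucleator ARP2/3, and it is known for holding AP-1 vesicles in the cell periphery and for restraining ARP2/3. Several chains have paralogs, of which AP1M2 is best known from polarized epithelia.

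Total counts lay between 7950190 and 8659796 per library. CBX8 had 83 to 104 counts in the CBX8 KO libraries and 27791 to 31408 in the re-expression libraries, which follows the labels. Of the 14461 genes tested, 959 were lower and 901 higher in WT CBX8 re-expression at an adjusted p under 0.05 (edgeR's quasi-likelihood test, Benjamini-Hochberg adjustment), and the median log2 fold change was 0.00. Among 9 markers of glia and glioblastoma, VIM (2697 to 2907 CPM, the count scaled to library size) and CD44 (2366 to 3064 CPM) were abundant, GFAP had 13 to 30 counts and OLIG2 14 to 38, NES and ALDH1L1 had at most 4, and SOX2, S100B and AQP4 were at 0 in every library. Their summed level was 5497 to 5802 CPM in CBX8 KO and 5132 to 5531 CPM in re-expression, against 8.67 to 9.84 and 11.0 to 14.2 CPM for 8 markers of other cell types, nearly all of it SNAP25. CD44 alone carried the lower glial sum (log2 fold change -0.21, adjusted p = 0.0097 in edgeR's quasi-likelihood test). VIM, GFAP and OLIG2, which did not pass, had log2 fold changes of 0.05, 0.68 and 0.85 with every re-expression library above CBX8 KO. Over all genes 28.9% had non-overlapping conditions in either direction. For VIM the closest libraries were at 2760 CPM in CBX8 KO and 2761 CPM in re-expression, and GFAP and OLIG2 rest on low counts. Whether these shifts have a part in the values below was not tested, and in bulk RNA a change in the share of cells and a change in RNA per cell cannot be told apart.

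AP1AR lies on the plus strand of chromosome 4 (hg38, chr4:112231740-112273110, ENSG00000138660.12), and its start sits in a CpG-rich window. In the RefSeq promoter table (GRCh38.p14, 250 bases before to 50 after a start) 9 of the 10 genes had an entry, AP1M1 being the exception. The AP1AR window held 34 CpG sites at 71.3% GC, more than 84.4% of the 35116 promoters of that length, whose median was 14. The sequences ahead of the start are printed for AP1AR, for the beta chain gene AP1B1 and for KIF5B, because AP1AR was separated between conditions while the libraries of AP1B1 and KIF5B overlapped. Capitals mark CpG sites, and each sequence runs 5′ to 3′ on the strand of its gene.
AP1AR (chr4:112231537-112231739, plus strand, 24 CpG sites): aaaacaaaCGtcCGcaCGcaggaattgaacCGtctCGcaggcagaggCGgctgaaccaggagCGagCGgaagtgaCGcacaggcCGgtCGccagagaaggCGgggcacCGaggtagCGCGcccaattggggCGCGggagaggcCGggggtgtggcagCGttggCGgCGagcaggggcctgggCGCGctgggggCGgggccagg
AP1B1 (chr22:29388584-29388820, minus strand, 16 CpG sites): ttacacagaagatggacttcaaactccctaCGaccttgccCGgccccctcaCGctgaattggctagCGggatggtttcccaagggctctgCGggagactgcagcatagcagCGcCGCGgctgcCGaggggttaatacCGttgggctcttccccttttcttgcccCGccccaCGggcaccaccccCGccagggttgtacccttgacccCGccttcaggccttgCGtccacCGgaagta
KIF5B (chr10:32056426-32056675, minus strand, 24 CpG sites): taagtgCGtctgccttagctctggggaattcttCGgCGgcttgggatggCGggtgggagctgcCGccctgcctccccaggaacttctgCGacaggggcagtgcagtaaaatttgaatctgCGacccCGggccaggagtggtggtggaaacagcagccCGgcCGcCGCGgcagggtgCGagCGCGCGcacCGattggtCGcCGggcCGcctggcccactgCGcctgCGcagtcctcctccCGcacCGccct

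The windows of AP1S2, AP1S1 and KIF5B held 32, 31 and 30 CpG sites, close to AP1AR. AP1B1 held 27, AP1G1 21, AP1M2 and AP1S3 18 each, and AP1G2 15, the lowest of the 9. On either strand, GGGCGG occurred 1 time in the AP1AR window and TATAAA did not occur, and CCAAT matched 1 time on each strand in overlapping letters of a single palindrome. Over all promoters, GGGCGG was present in 45.0%, CCAAT in 34.6% and TATAAA in 11.5%. These matches describe the letters of the windows and say nothing of binding.

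AP1AR was higher in every WT CBX8 re-expression library than in any CBX8 KO library. It had 184, 205 and 173 counts in CBX8 KO and 575, 542 and 537 in re-expression. After TMM scaling these were 23.2, 24.4 and 22.1 CPM against 67.6, 61.9 and 63.9 CPM. The libraries of each condition lay close together and far from those of the other. The means were 23.2 ± 1.11 and 64.5 ± 2.87 CPM (SD, n = 3 libraries each), a 2.77-fold difference with a log2 fold change of 1.47 (SE 0.08). AP1AR had the log2 fold change ranked 37 from the highest of the 14461 genes, of which 107 were at or above 1 and 45 were as far below 0. The log2 fold change was between 1.43 and 1.51 with any 1 library left out, and between 1.43 and 1.53 over all alternative fits.

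Of the 10 genes, AP1AR and AP1G2 passed the threshold, both higher in re-expression, and 0 were lower. Over all genes tested 12.9% passed in either direction, 6.23% higher and 6.63% lower. AP1AR, AP1G2 and AP1S1 had conditions that did not overlap, all 3 with re-expression higher, where 28.9% of all genes had non-overlapping conditions. At an unadjusted p under 0.05 there were 3 of the 10 (25.3% of all genes), limma voom called 2 (12.6%) and DESeq2 called 1 (8.14%). Since the genes were chosen with this contrast known, no call on the 10, here or below, counts as a test of them. Nothing is read from these counts. The median log2 fold change of the 10 was 0.08.

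**Figure D1:**
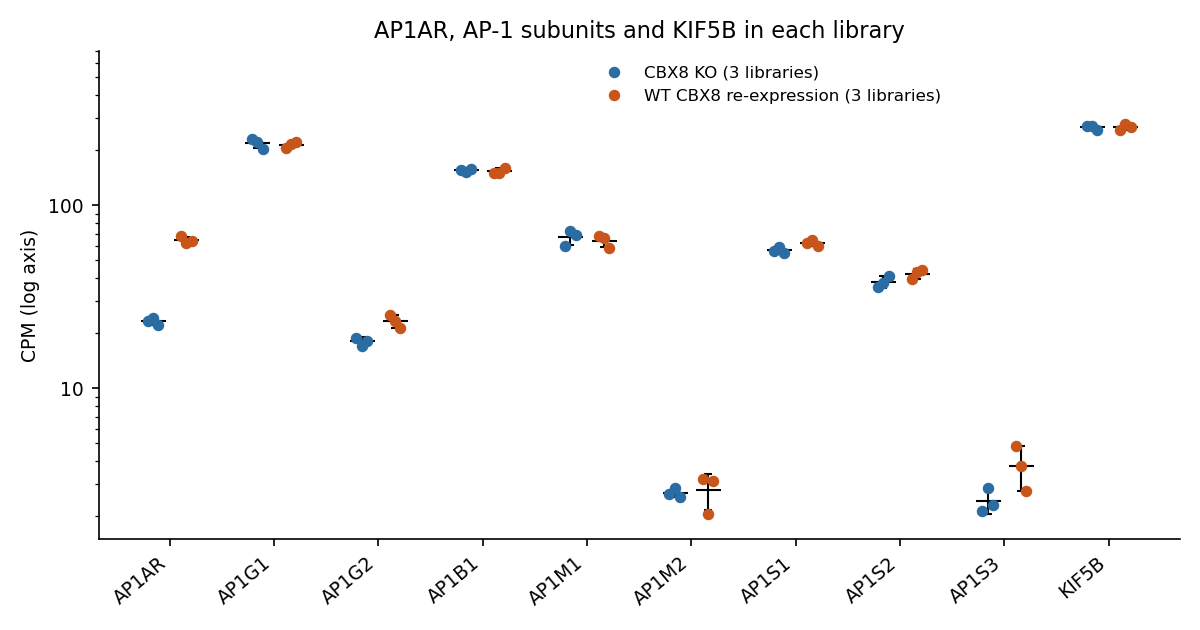
Level of each gene in CPM (log axis) in the 3 CBX8 KO and 3 WT CBX8 re-expression libraries, with points for libraries and bars for mean ± SD. AP1AR is separated between conditions (22.1 to 24.4 against 61.9 to 67.6 CPM), whereas AP1G1, AP1B1 and KIF5B lie on top of each other; heights of different genes are not corrected for length.

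The gamma chains carry the ear domain that AP1AR binds. AP1G1, the gamma-1 chain, had 229, 221 and 205 CPM in CBX8 KO and 205, 217 and 221 CPM in re-expression. The conditions overlapped, and the log2 fold change was -0.03 (SE 0.05). AP1G1 shares 752 bp of exon with ATXN1L on the opposite strand, which had 878 to 947 counts and overlapping conditions. AP1G2, the gamma-2 chain, is the less studied paralog. It had 150, 144 and 142 counts in CBX8 KO and 214, 203 and 180 in re-expression, or 18.9, 17.1 and 18.2 CPM against 25.1, 23.2 and 21.4 CPM. Every re-expression library was above every CBX8 KO library, with means of 18.1 ± 0.916 and 23.3 ± 1.86 CPM (SD, n = 3 libraries each), a ratio of 1.29. The log2 fold change of AP1G2 was 0.37 (SE 0.10) and stayed between 0.30 and 0.42 with 1 library left out. Its place past the threshold, a description here, was lost by DESeq2 and without CBX8 KO replicate 2, re-expression replicate 1 or re-expression replicate 2. AP1G2 shares 4154 bp of exon with 4 other annotated genes, 2700 bp of it with AP1G2-AS1, which was not analysed here. Of the others THTPA had 19 to 21 counts, ZFHX2-AS1 12 to 23 and JPH4 0 to 2. The strand setting of the counting is not given in the sources used here, so reads in the shared exons cannot be told apart.

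AP1B1, the beta chain, which contacts clathrin, had 1239, 1285 and 1234 counts in CBX8 KO and 1277, 1313 and 1349 in re-expression. That is 156 ± 2.70 against 154 ± 6.09 CPM (SD, n = 3 libraries each), with overlapping libraries and a log2 fold change of -0.02 (SE 0.05). AP1M1, the mu-1 chain that reads tyrosine-based sorting signals, had 475, 611 and 538 counts against 577, 577 and 493. The spread inside each condition exceeded the gap between them, at 67.1 ± 6.50 and 64.1 ± 4.82 CPM, and the log2 fold change was -0.07 (SE 0.07). AP1M2, the epithelial paralog of AP1M1, was near the low end of the counts, with 20 to 24 in CBX8 KO and 18 to 27 in re-expression. Its log2 fold change of 0.04 had an SE of 0.26, so a difference of modest size in AP1M2 was not detectable at this depth.

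All 3 sigma chains had a higher mean in re-expression, with AP1S3, the least abundant, furthest apart. AP1S1 had 447, 497 and 430 counts in CBX8 KO and 528, 565 and 501 in re-expression. In CPM the conditions did not overlap (56.8 ± 2.04 against 62.1 ± 2.45, SD, n = 3 libraries each), although the log2 fold change of 0.13 (SE 0.06) did not pass the threshold. AP1S2 had 38.2 ± 2.84 and 42.2 ± 2.49 CPM, with overlapping libraries and a log2 fold change of 0.14 (SE 0.08). Its transcript has 1 near-identical copy on chromosome 17 (98.1% identity over 98.2% of its bases). It also shares 829 bp of exon with ZRSR2 on the opposite strand (49 to 76 counts), so the count of AP1S2 is uncertain. AP1S3 shares 2278 bp of exon with 2 other annotated genes, most of it with a protein-coding gene on the same strand. The count of AP1S3 is therefore uncertain too. AP1S3 had 17, 24 and 18 counts in CBX8 KO and 41, 33 and 23 in re-expression. The lowest re-expression library fell inside the CBX8 KO range, and the log2 fold change of 0.63 (SE 0.26) moved between 0.41 and 0.81 with 1 library left out.

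KIF5B, the ubiquitous kinesin-1 heavy chain and motor partner of AP1AR, had 2150, 2274 and 2026 counts in CBX8 KO and 2202, 2430 and 2256 in re-expression. Its level was 267 ± 6.65 against 268 ± 9.39 CPM (SD, n = 3 libraries each), with overlapping libraries and a log2 fold change of 0.01 (SE 0.05).

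**Figure D2:**
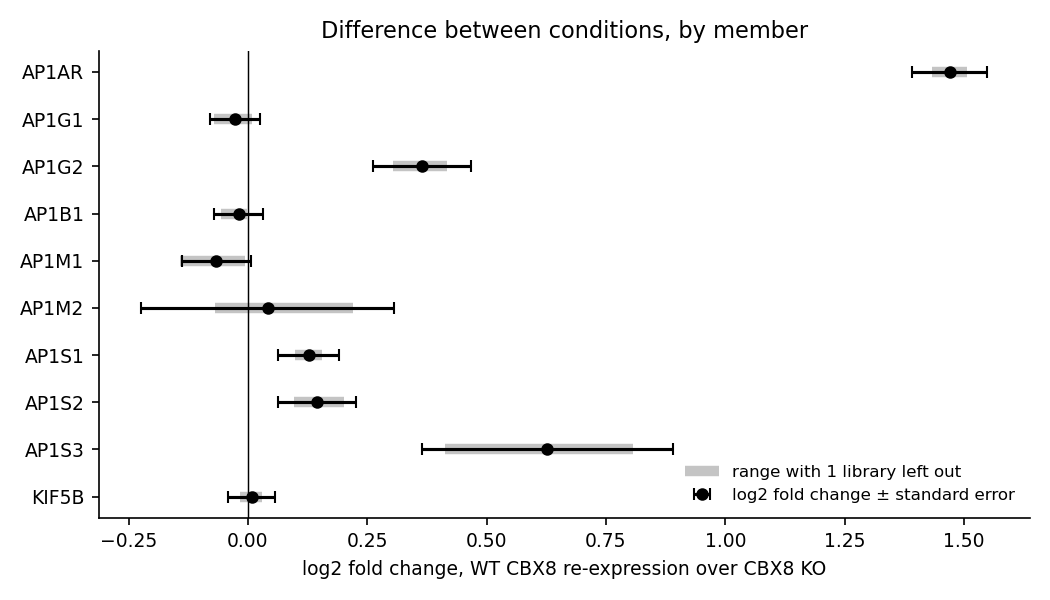
Log2 fold change of each gene, WT CBX8 re-expression over CBX8 KO, with its standard error as a line and the range with 1 library left out as a grey band. AP1AR stands at 1.47, AP1G2 at 0.37 and AP1S3 at 0.63 with a wide error, and the other 7 genes lie between -0.07 and 0.14.

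Levels of different genes were compared as CPM per kb of merged exon. In CBX8 KO the order ran from KIF5B (45.5) through AP1S1 (33.5), AP1B1 (23.8), AP1G1 (19.9), AP1S2 (7.03), AP1M1 (4.76), AP1AR (3.57), AP1G2 (2.62) and AP1M2 (1.21) to AP1S3 (0.250). In WT CBX8 re-expression AP1AR reached 9.91 and stood above AP1S2 (7.77) and AP1M1 (4.55), moving from place 7 to place 5. In neither condition did the libraries of neighbours in this order overlap. With the length of a representative transcript in place of merged exons, AP1AR was at 3.93 and 10.9 and moved from place 8 to place 7, and its libraries then overlapped those of AP1S2 in re-expression. The order between genes thus depended on the length used, while the place of AP1AR rose with either.

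Taken inside each library, the ratio of AP1AR to AP1G1 per kb does not depend on scaling between libraries. It was 0.171, 0.186 and 0.183 in CBX8 KO and 0.556, 0.482 and 0.489 in re-expression. The lowest re-expression ratio was well above the highest CBX8 KO ratio, and the means of 0.180 ± 0.00788 and 0.509 ± 0.0410 differed 2.83-fold. The same ratio differed 2.81-fold against AP1B1, 2.90-fold against AP1M1, 2.54-fold against AP1S1 and 2.77-fold against KIF5B. It was not taken against AP1G2, AP1M2, AP1S2 or AP1S3. Their own mean CPM in re-expression was 1.287, 1.033, 1.105 and 1.551 times that in CBX8 KO.

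**Figure D3:**
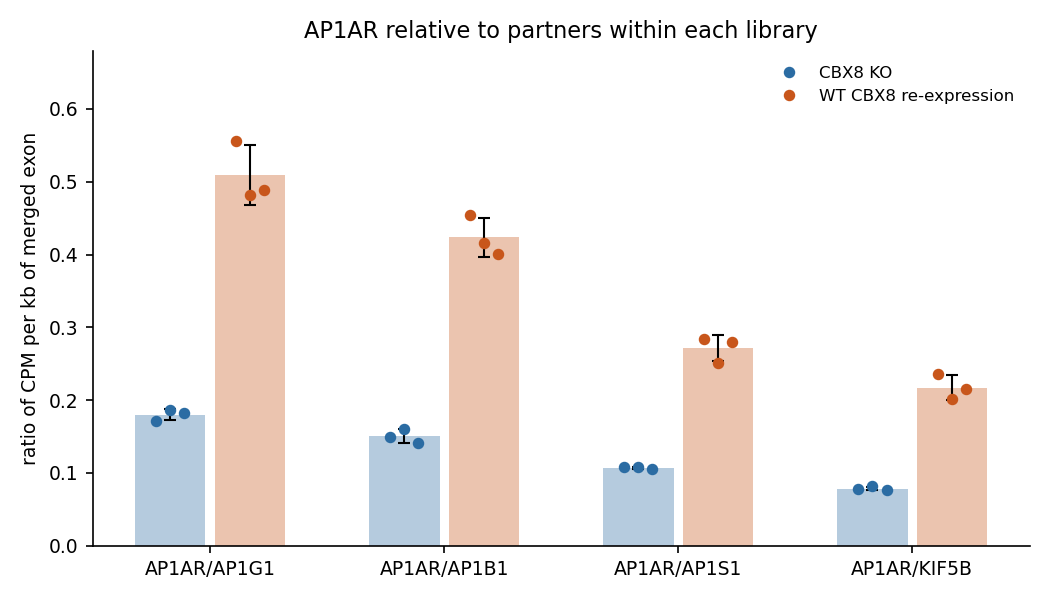
Ratio of AP1AR to AP1G1, AP1B1, AP1S1 and KIF5B inside each library, in CPM per kb of merged exon, with bars for means and lines for SD over 3 libraries. For each of the 4 partners every WT CBX8 re-expression ratio is above every CBX8 KO ratio, with means of 0.180 and 0.509 for AP1G1 and 0.0785 and 0.217 for KIF5B.

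Within each chain, 1 paralog made up most of the per-kb level. AP1G1 gave 88.3 ± 0.709% of the gamma level in CBX8 KO and 85.2 ± 1.49% in re-expression (SD, n = 3 libraries each). The share of AP1G2 was 11.6, 11.0 and 12.4% in CBX8 KO and 16.3, 14.6 and 13.4% in re-expression, so the conditions did not overlap. This share rests on the AP1G1 and AP1G2 counts given above, and 4154 bp of AP1G2 exon is shared with other genes. In level, 28.9% of all genes had non-overlapping conditions. AP1M1 gave 79.6 ± 1.45 and 78.5 ± 4.45% of the mu level, a share that was the most sensitive to the length used (94.98 and 94.59% with representative transcripts). AP1S1 gave 82.1 ± 1.38 and 81.7 ± 0.962% of the sigma level, AP1S2 17.3 and 17.4%, and AP1S3 at most 1.12% in any library. The mu and sigma shares overlapped between conditions.

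**Figure D4:**
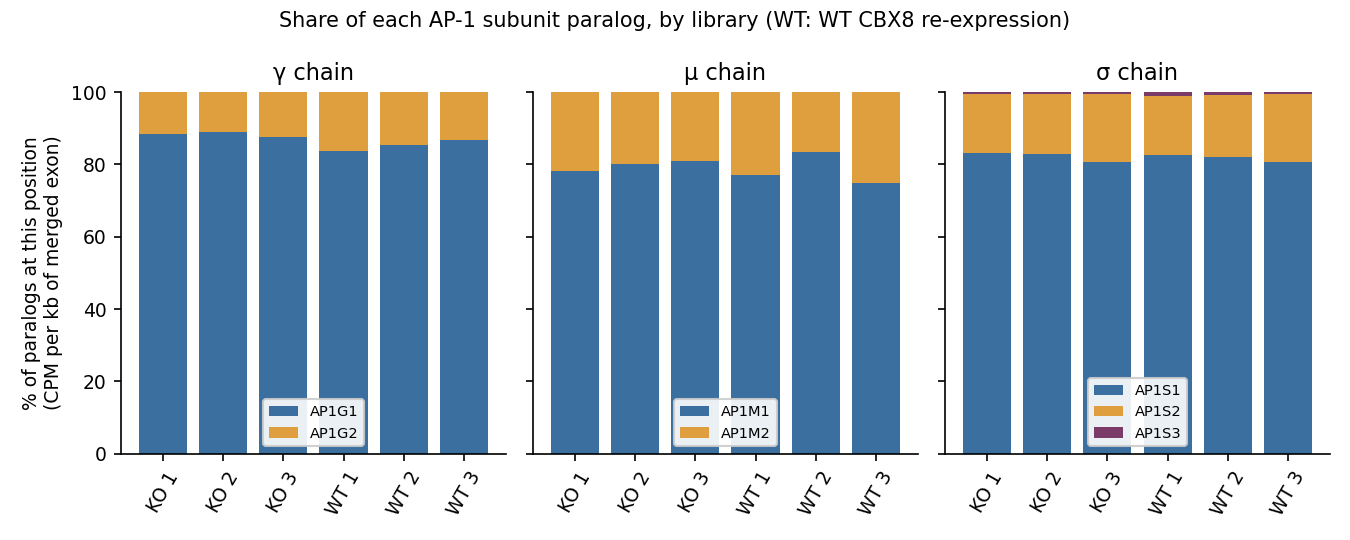
Share of each paralog in the per-kb level of its chain, in percent, for the 3 CBX8 KO (KO) and 3 WT CBX8 re-expression (WT) libraries. AP1G2 takes 11.0 to 12.4% of the gamma level in CBX8 KO and 13.4 to 16.3% in re-expression, and the mu and sigma panels show no such separation.

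The pattern of AP1AR over the 6 libraries was most like those of 5 genes, by the root-mean-square difference of log2 CPM centred on each gene's mean among 13587 genes. They were TNC, the matrix protein tenascin-C (difference 0.103, log2 fold change 1.39), PTPRH, a receptor tyrosine phosphatase (0.140, 1.58), ATP8A1, a phospholipid flippase (0.163, 1.33), DKK1, a secreted Wnt antagonist (0.170, 1.16), and TMEM59L (0.173, 1.42). TNC had 536, 537 and 460 counts in CBX8 KO and 1322, 1480 and 1471 in re-expression, against 10 to 31 counts for ATP8A1, so the 5 differ in precision. With 6 libraries in 2 groups, such a likeness mostly describes the size of the difference between conditions.

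Of 32 annotated genes within 500 kb of AP1AR, 17 were in the count table and only 4 were tested. AP1AR-DT was not among the 17. It is a long noncoding RNA gene on the minus strand, 0.1 kb from AP1AR, and it reaches into the AP1AR sequence printed above. In edgeR's quasi-likelihood test 0 of the 4 passed and 0 had an unadjusted p under 0.05, against 12.9% and 25.3% of all genes. DESeq2 called 0, against 8.14% of all genes. Conditions did not overlap for 2 of the 4, ALPK1 higher and ZGRF1 lower (28.9% of all genes in either direction). These 4 genes are too few to set the neighbourhood apart. TIFA, an adaptor of NF-kappa B signalling whose gene overlaps AP1AR by 143 bp of exon on the opposite strand, had 75 to 101 counts and a log2 fold change of -0.06 (adjusted p = 0.82, edgeR's quasi-likelihood test). ALPK1, the kinase that acts upstream of TIFA, was at 0.18 (adjusted p = 0.27), ZGRF1 at -0.16 (adjusted p = 0.26) and LARP7, a 7SK RNA-binding protein, at -0.11 (adjusted p = 0.43). The other 13 neighbours in the table had at most 1 count in any library. Reads from the shared exon of AP1AR and TIFA cannot be told apart without strand, and TIFA had fewer counts than AP1AR in every library.

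Genes that act with AP-1 were read from the same fit across all genes, and 12.9% of all genes tested passed the threshold. Of 24 coat partners (clathrin chains, ARF GTPases and their exchange factors, GGA adaptors and accessory proteins), 23 were tested, 2 were higher and 2 lower, with a median log2 fold change of 0.02. CLTB, a clathrin light chain, rose by 0.30 (SE 0.08, adjusted p = 0.015, Benjamini-Hochberg adjusted in edgeR's quasi-likelihood fit). AAK1, the kinase of adaptor mu chains, rose by 0.27 (SE 0.08, adjusted p = 0.027), although its libraries overlapped between conditions. ARF3 and ARF4, small GTPases of the Golgi, fell by 0.16 (SE 0.05, adjusted p = 0.027) and 0.14 (SE 0.05, adjusted p = 0.042) on the log2 scale. CLTC, the clathrin heavy chain and the highest of the list in CPM, was at -0.01 (SE 0.05). DESeq2 called 2 of the 23, ARF3 and ARF4, and 6 had an unadjusted p under 0.05, close to the 8.14% and 25.3% of all genes. CLTB passed in 10 of 13 alternative fits and AAK1, ARF3 and ARF4 in 7 each. With library size scaling 5 of the list were higher and 0 lower, with neither ARF3 nor ARF4 called. The count of 4 fell to 1 without CBX8 KO replicate 2 or re-expression replicate 2 and to 2 without CBX8 KO replicate 1, CBX8 KO replicate 3 or re-expression replicate 1, and without re-expression replicate 3 CLTB and AAK1 were lost while CLTA passed.

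Subunits of the adaptor complexes AP-2 to AP-5 gave a measure of how other adaptors behaved. All 20 were tested and 0 passed the threshold in edgeR's quasi-likelihood test (12.9% of all genes), with 2 at an unadjusted p under 0.05 (25.3% of all genes). DESeq2 and limma voom called 0 (8.14% and 12.6% of all genes). Conditions did not overlap for 2 of the 20, 1 higher and 1 lower (28.9% of all genes in either direction). The log2 fold changes of the 20 ranged from -0.15 (AP3S1) to 0.41 (AP2A2) around a median of 0.02. AP2M1, the mu chain of the endocytic adaptor and the highest in CPM, was at 0.02 (SE 0.05). AP3S1 passed without CBX8 KO replicate 3, and AP2A2 without re-expression replicate 3, each making the count 1.

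Of 12 transmembrane proteins known as AP-1 cargo, 11 were tested, 1 was lower and 2 were higher, around a median log2 fold change of 0.11. Over all genes tested 12.9% passed. An unadjusted p under 0.05 in edgeR was found for 6 of the 11 (25.3% of all genes). Conditions did not overlap for 6, 4 of them higher and 2 lower (28.9% of all genes in either direction). TFRC, the transferrin receptor of iron uptake and the highest of them in CPM, fell from 879 ± 10.5 to 634 ± 15.3 CPM (SD, n = 3 libraries each). Its log2 fold change was -0.47 (SE 0.05, adjusted p = 4.6e-08, Benjamini-Hochberg adjusted in edgeR's quasi-likelihood fit), and it passed in all 13 alternative fits at the same threshold. IGF2R, the cation-independent mannose 6-phosphate receptor, rose by 0.17 (SE 0.05, adjusted p = 0.036), and CPD, carboxypeptidase D, rose by 0.20 (SE 0.06, adjusted p = 0.018). They passed in 5 and 9 of the 13 alternative fits. TFRC alone passed by DESeq2 and without re-expression replicate 2 or 3, and without CBX8 KO replicate 3 both IGF2R and CPD were lost while FURIN passed.

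All 7 of the other motor genes, KIF5A, KIF5C, the light chains KLC1 to KLC4 and KIF13A, were tested. Past the threshold 2 rose and 0 fell, where 12.9% of all genes passed and 6.23% were higher. The median log2 fold change of the 7 was 0.20. KIF5A, a neuronal heavy chain, had 50, 37 and 31 counts in CBX8 KO and 71, 65 and 57 in re-expression, a log2 fold change of 0.62 (SE 0.19, adjusted p = 0.027, Benjamini-Hochberg adjusted in edgeR's quasi-likelihood fit). KIF5C, another neuronal heavy chain, had 28, 38 and 21 counts against 53, 52 and 55, a log2 fold change of 0.79 (SE 0.21, adjusted p = 0.010). For both, every re-expression library was above every CBX8 KO library, and the same held for KLC1, KLC3 and KLC4. That made 5 of the 7, where 28.9% of all genes had non-overlapping conditions in either direction. SNAP25, a neuronal marker, was separated in the same direction (69 to 109 counts), while RBFOX3, another neuronal marker, had at most 1 count. Whether KIF5A, KIF5C and SNAP25 are related was not tested. DESeq2 called 0 of the 7 and 3 had an unadjusted p under 0.05 in edgeR, against 8.14% and 25.3% of all genes. KIF5C alone passed without CBX8 KO replicate 2 or re-expression replicate 1 or 2, and without CBX8 KO replicate 3 neither KIF5A nor KIF5C passed and KLC3 did. KIF13A, the motor of AP-1 vesicles and the highest of the 7 in CPM, was at -0.04 (SE 0.06).

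Of the 10 genes of ARP2/3, the actin nucleator bound by AP1AR, 1 passed the threshold, where 12.9% of all genes did. An unadjusted p under 0.05 in edgeR was found for 1 of the 10, against 25.3% of all genes. The list was thus not set apart from all genes by these counts. ACTR2, the ARP2 subunit and the highest in CPM, rose from 426 ± 12.8 to 477 ± 8.07 CPM (SD, n = 3 libraries each), a log2 fold change of 0.16 (SE 0.05, adjusted p = 0.022, Benjamini-Hochberg adjusted in edgeR's quasi-likelihood fit). It did not pass without CBX8 KO replicate 1, CBX8 KO replicate 3 or re-expression replicate 2, when the count was 0. The median log2 fold change of the 10 was 0.07.

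**Figure D5:**
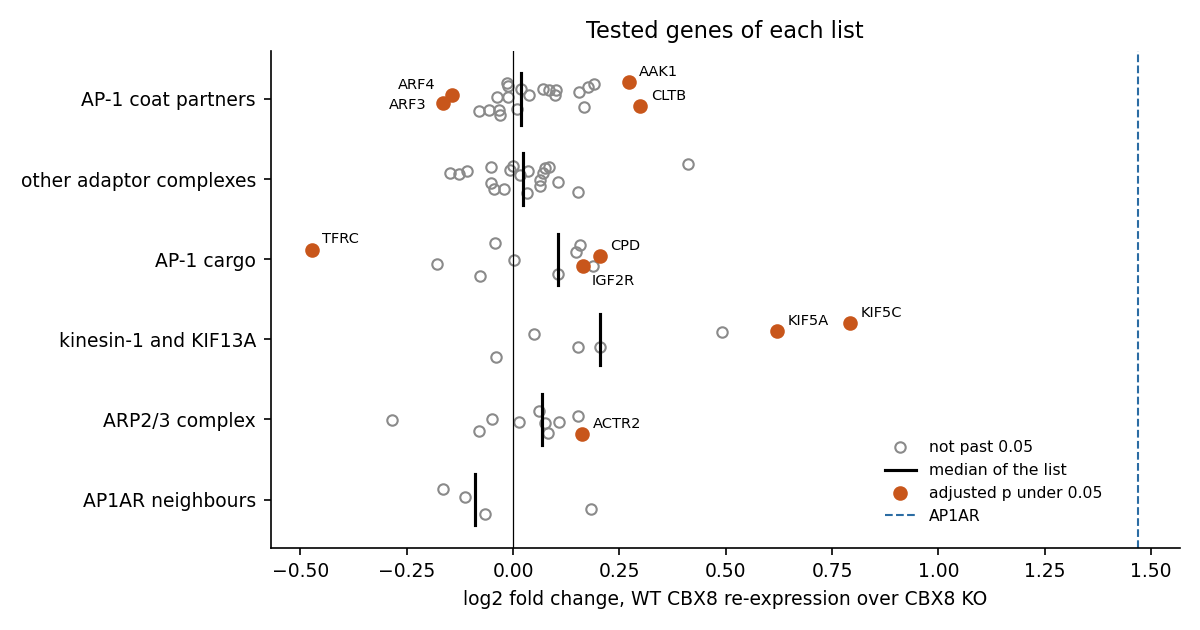
Log2 fold change of the tested genes of each list, WT CBX8 re-expression over CBX8 KO, with filled points for an adjusted p under 0.05 and bars for medians. The called genes lie between -0.47 (TFRC) and 0.79 (KIF5C), and the dashed line marks AP1AR at 1.47.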

How the data were processed

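RNA-seq counts of 6 T98G libraries, 3 CBX8 KO and 3 WT CBX8 re-expression, were analysed, grouped by their titles. The authors deposited raw read counts per gene symbol, without normalization. The submitters' notes and the methods name FastQC, Trimmomatic and HISAT2 on Galaxy with hg38. Tool versions, the annotation, and how and on which strand reads were counted are not given in the sources used here. Of 57133 symbols, 29123 had no count. Low counts were removed with filterByExpr and libraries scaled by TMM in edgeR 4.0.16 (R 4.3.3), and conditions were compared by glmQLFit and glmQLFTest at their defaults with Benjamini-Hochberg adjustment over 14461 genes at FDR under 0.05. SE was derived from the log2 fold change and its F statistic (size of the change over root F). The common biological coefficient of variation was 4.7%, and the test was checked on simulated counts. The log2 CPM used for likeness had a prior count of 2, and genes with an average of at least 1 were compared.

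The members and lists were chosen with earlier results of these data known. Named genes were the members, CBX8, every called gene and the gene highest in CPM of each list, tested neighbours of AP1AR, and the 5 genes most like it. Positions and exon lengths come from GENCODE release 44 on hg38. Near-identical copies were sought with minimap2 2.31 (at least 95% identity over at least 50% of the transcript). Promoter windows of 300 bases come from RefSeq. Replicate numbers did not pair the libraries (correlations of deviations -0.14, -0.16 and -0.08 over 10393 genes). Library pairs within a condition differed by more than counting noise. The sources do not say whether replicates came from separate cultures, so SD and p-values describe spread between libraries. Without molecular identifiers, precision from depth covers counting error only. Alternatives were RLE and library size scaling, DESeq2 1.42.0, limma voom (limma 3.58.1), the other legacy setting, no count filter, FDR under 0.01, a replicate block, each library left out, and another exon length.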

Additional observations from a re-analysis of the deposited data

How the results depend on the processing

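The log2 fold change of AP1AR lay between 1.43 and 1.53 over the 13 alternative fits. Of 117 values of the other members over these fits, 114 moved by less than the spread between replicates, and with library size scaling AP1B1 was at 0.04, AP1S1 at 0.18 and KIF5B at 0.06. That scaling moved the median of all genes by 0.06, gave 592 genes lower and 1400 higher in place of 959 and 901, and called 5 coat partners (all higher), 1 of the other adaptors, 6 cargo genes and 2 ARP2/3 genes. DESeq2 called 676 genes lower and 501 higher, 2 coat partners, 1 cargo gene and 0 kinesin genes. FDR under 0.01 lowers counts by construction, to 569 lower, 489 higher, 0 coat partners, 1 cargo gene, 1 kinesin gene and 0 ARP2/3 genes. With the replicate block, 1 coat partner, 1 other adaptor (AP2A2) and 0 ARP2/3 genes were called, although the shared numbers did not pair the libraries.

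With 1 library left out there were 635 to 851 genes lower and 593 to 792 higher, the lowest of both without re-expression replicate 2. The lists then had 1 to 3 coat partners called, 0 to 1 other adaptors, 1 to 3 cargo genes, 1 to 2 kinesin genes and 0 to 1 ARP2/3 genes. The called list genes and the tested neighbours gave 196 values, of which 143 kept both sign and call and 52 kept the sign only. All 52 were of called list genes, since the neighbours were called in no fit and had no call to lose. Other list genes that gained a call, among them CLTA, FURIN, AP2A2 and KLC3, are not in the 196. TIFA, at -0.06, ranged from -0.16 to 0.0007 with 1 library left out, positive without CBX8 KO replicate 2. With representative transcript lengths the AP1AR to AP1G1 ratio was 0.0648 in CBX8 KO and 0.183 in re-expression, and the shares were 91.7 and 89.4% for AP1G1, 94.98 and 94.59% for AP1M1, and 89.0 and 88.4% for AP1S1. By Pearson correlation in place of the root-mean-square difference, the 5 genes most like AP1AR were CBX8, XIAP, TTC7B, HBEGF and MARCH1, with 0 shared and 27 genes at r of 0.99 or more over the 6 libraries. Apart from the stricter FDR, the cause of these changes was not tested. Counts of 17 to 41 limit what could be seen for AP1M2 and AP1S3.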
